A study of Homo sapiens with 12 samples.

Results

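The TFEB family and its Rag-folliculin regulators are 10 human genes: the transcription factors TFEB, TFE3 and MITF, folliculin (FLCN) with its partner proteins FNIP1 and FNIP2, and the Rag GTPases RRAGA, RRAGB, RRAGC and RRAGD. They were picked by gene symbol, and all 10 were found among the 25733 genes of the deposited table. The table comes from a study of ammonia and TGF-β signalling in colon cancer and gives RNA sequencing of HCT116, an established human colon cancer cell line. Its 12 libraries form 4 groups of 3, which are control cells with no treatment, cells with TGF-β, cells with NH4Cl, and cells with NH4Cl plus TGF-β. The labels give no dose or time, and the paper's account of the sequencing gives the NH4Cl dose but no time. Its general methods for treating cells give NH4Cl at 10 mM for 24 h, and vehicle or 10 mM NH4Cl for 23 h followed by TGF-β at 200 pM for 1 h. All groups are the same unmodified line.

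Each value is an FPKM, the number of fragments per kilobase of exon scaled to library size as the authors computed it. The length used is that of all annotated exons of a gene together, not of the transcript expressed. A comparison of levels between genes therefore depends on that length. The reads recovered from the table numbered between 14807630 and 18191998 per library, with a median of 15484798. Nothing in the labels says that the 3 libraries of a group are separate cultures, so the p-values measure the spread between these libraries, which may be technical. Libraries of the same replicate number resembled each other across treatments, and the 4 libraries of replicate number 3 stood apart, with 4.50 to 5.12% of their reads on mitochondrial genes against 2.46 to 3.18% in the other 8. The library total implied by the FPKM was below the reads on genes in number 3 (14819100 against 15298508 in control replicate 3). It was above them in numbers 1 and 2 (16932900 against 16647681 in control replicate 1). This total scales every FPKM of a library, and its part in the higher values of number 3 was not tested. Results are therefore given without and with replicate number as a block, which compares libraries within a number, and the main ones again without number 3. The label was checked against colorectal epithelial markers, of which 7 of 8 had a mean FPKM of at least 1. KRT18 was the most abundant, at 876, and KRT20 the exception, at 0.190.

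TFEB, TFE3 and MITF are basic helix-loop-helix factors that bind E-box sequences and switch on genes of lysosomes and autophagy, and MITF is best known as the regulator of melanocytes. When amino acids are plentiful, heterodimers of RagA or RagB with RagC or RagD hold the kinase complex mTORC1 and these factors at the lysosome, where phosphorylation keeps the factors out of the nucleus. Folliculin, bound to FNIP1 or FNIP2, drives RagC and RagD into the form that recruits the factors, and NH4Cl is a weak base that raises the pH of lysosomes.

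The genes covered a wide range of levels. Averaged over the 12 libraries, RRAGA was the most abundant at an FPKM of 51.2, followed by TFE3 at 20.0, RRAGD at 7.26, FNIP1 at 5.11 and TFEB at 3.77. FLCN at 2.58, RRAGB at 2.57, RRAGC at 2.23, FNIP2 at 1.11 and MITF at 0.319 came next. The order of FLCN and RRAGB was no more than their spread, since FLCN was the higher in 7 of 12 libraries and the means differed by 0.0112 of the larger SD. FLCN had a mean of 400 reads per library over 9786 exon bases and RRAGB 112 over 2725. Their like FPKM therefore depends on these lengths. RRAGB was above RRAGC in 9 of 12 libraries and FNIP1 above TFEB in 11 of 12, while each of the other neighbours kept its order in all 12. The ranges over libraries overlapped for RRAGD and FNIP1 and for TFEB and FLCN as well. MITF, with 23 to 53 reads per library, was the only gene of the group under the minimum mean FPKM of 1 for testing, so 9 of 10 were tested. None of the 5 melanocyte markers in the table reached that level either, and PMEL was the highest of them at 0.716.

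Within each kind of protein, 1 gene gave most of the summed FPKM. RRAGA gave 94.6 to 96.1% of the summed FPKM of RRAGA and RRAGB over the 12 libraries, and RRAGD gave 71.7 to 81.1% of that of RRAGC and RRAGD. FNIP1 gave 78.7 to 86.6% of the summed FPKM of the FNIP genes. TFE3 gave 81.1 to 85.0% of that of TFEB, TFE3 and MITF. It also had the most reads of these, a mean of 1370 per library against 340 for TFEB and 36.8 for MITF. By group, the TFE3 share was 84.1% ± 0.776 in control, 82.8% ± 0.485 with TGF-β, 83.5% ± 0.673 with NH4Cl and 81.8% ± 0.669 with NH4Cl plus TGF-β (SD, n = 3).

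**Figure D1:**
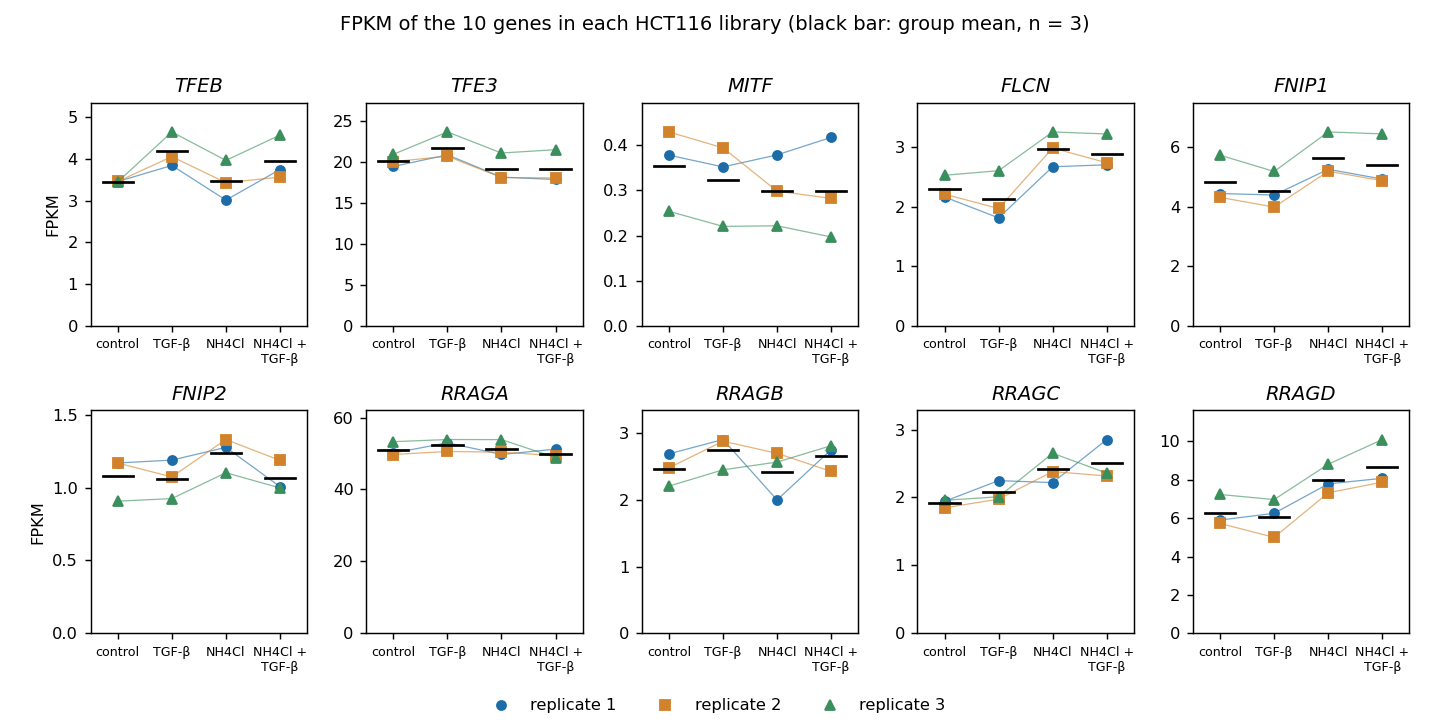
FPKM (vertical axis, linear, from 0) of the 10 genes in each of the 12 HCT116 libraries by treatment (horizontal axis); points are libraries, coloured and joined by replicate number, and black bars are group means (n = 3). RRAGD and FLCN sit higher in the 6 libraries with NH4Cl than in the 6 without, and the replicate 3 libraries sit highest in every group for TFE3, FLCN, FNIP1 and RRAGD.

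The promoters of the genes were read because RRAGC, RRAGD, FLCN and FNIP1 were higher with NH4Cl in every pair of libraries of the same replicate number, and because the factors of the family bind E-boxes. RefSeq windows on build GRCh38.p14, each from 250 bases before to 50 after a start site, were found for 8 of 10 genes, with 13 windows in all. RRAGA and RRAGD had none in the table. The E-box CACGTG occurred in 7.26% of the 35116 windows of all genes, and in 3 of the 13 windows here, those of FNIP1, RRAGB and RRAGC. Its longer form TCACGTGA, the core of the CLEAR element known from lysosomal genes, occurred in 0.980% of all windows and in 1 of the 13, that of RRAGB. It contains an E-box, so those matches overlap. The M-box TCATGTG occurred in 2.92% of all windows and in 1 of the 13, a window of FNIP2, on the minus strand of the window and 142 bases before the start site. All motifs were searched on both strands. These matches describe the letters and are not measured binding sites, and the lack of a match in TFEB, TFE3, MITF and FLCN says only that these letters are not in these windows.

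The windows of FNIP1 (chr5:131796968-131797267, minus strand), RRAGB (chrX:55717499-55717798, plus strand), RRAGC (chr1:38859723-38860022, minus strand) and FLCN (chr17:17237119-17237418, minus strand) are printed, the first 3 for their E-boxes and FLCN as the gene called with NH4Cl whose window could be read. Each runs 5′ to 3′ on the strand of its gene, and capitals mark the E-boxes and, in RRAGB, the CLEAR core around the middle one.
FNIP1: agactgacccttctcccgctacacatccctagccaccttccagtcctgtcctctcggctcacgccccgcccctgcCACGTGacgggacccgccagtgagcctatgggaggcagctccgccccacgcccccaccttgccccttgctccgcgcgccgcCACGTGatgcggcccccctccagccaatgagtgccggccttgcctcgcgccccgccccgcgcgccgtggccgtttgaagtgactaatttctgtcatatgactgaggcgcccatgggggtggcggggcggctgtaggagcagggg
RRAGB: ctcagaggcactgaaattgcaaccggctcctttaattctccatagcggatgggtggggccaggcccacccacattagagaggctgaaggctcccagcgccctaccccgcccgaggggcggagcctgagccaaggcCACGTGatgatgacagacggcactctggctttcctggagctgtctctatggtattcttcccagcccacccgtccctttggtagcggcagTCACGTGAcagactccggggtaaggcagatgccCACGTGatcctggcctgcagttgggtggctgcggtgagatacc
RRAGC: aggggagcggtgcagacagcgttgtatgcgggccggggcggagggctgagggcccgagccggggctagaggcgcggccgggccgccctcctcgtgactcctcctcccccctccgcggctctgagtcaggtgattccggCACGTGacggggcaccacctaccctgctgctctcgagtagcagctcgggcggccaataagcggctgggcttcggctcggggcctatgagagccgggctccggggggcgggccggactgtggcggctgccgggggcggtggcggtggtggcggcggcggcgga
FLCN: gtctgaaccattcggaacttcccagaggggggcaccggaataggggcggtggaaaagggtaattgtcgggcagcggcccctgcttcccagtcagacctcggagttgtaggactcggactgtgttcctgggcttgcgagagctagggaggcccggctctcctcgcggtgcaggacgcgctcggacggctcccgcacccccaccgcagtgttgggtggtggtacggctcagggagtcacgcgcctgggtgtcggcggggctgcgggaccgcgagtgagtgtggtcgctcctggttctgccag
The E-boxes of FNIP1 began 175 and 94 bases before the start site, that of RRAGC 112 bases before it, and those of RRAGB 115 and 25 bases before it and at base 8 after it. The plot of motif matches places them side by side and leaves the FLCN window empty.

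**Figure D2:**
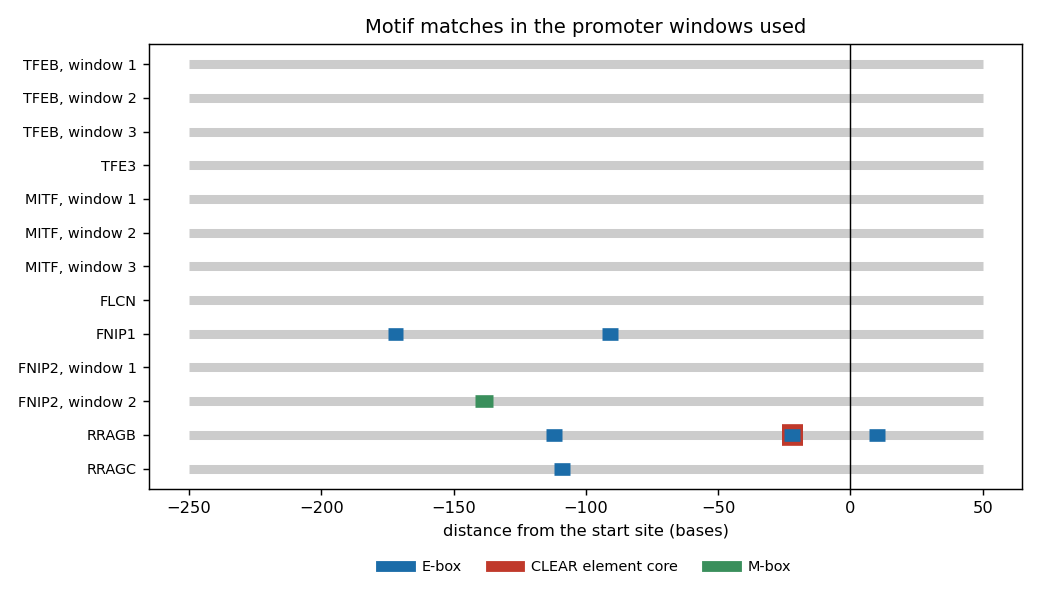
Motif matches in the 13 promoter windows, 1 row per window, along the distance from the start site in bases (horizontal axis); grey bars are the windows and coloured blocks the matches, the E-box within the CLEAR core being drawn on top of it. E-boxes lie in FNIP1, RRAGB and RRAGC, the CLEAR core only in RRAGB and the M-box only in FNIP2.

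The question of the first comparison is whether NH4Cl, averaged over cells without and with TGF-β, changed these genes. RRAGD and FLCN rose, and no gene of the group fell in the test without the block. The test was limma on log2(FPKM + 1) over the 12341 genes whose mean FPKM was 1 or more, with a threshold of 0.05 on the p-value adjusted over all of them, and fold changes on this scale understate the change of genes with a low FPKM. Of the 9 genes tested 2 were called, both higher, against 6.14% of all genes tested, 3.74% higher and 2.4% lower. With replicate number as a block 5 of the 9 were called against 31% of all genes, 4 higher against 16.1% and TFE3 lower against 15%, so a call with the block was common in the table. The 6 libraries with NH4Cl lay all above the 6 without for 2 genes of the group, RRAGD and FLCN, against 3.57% of all genes, and all below for 0 against 2.4%. Within pairs of the same replicate number, 4 genes (RRAGC, RRAGD, FLCN and FNIP1) were higher with NH4Cl in all 6 pairs against 15.7% of all genes, and 0 were lower in all 6 against 15.5%. The median log2 fold change was 0.05 over the 9 genes and -0.00061 over all genes tested.

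RRAGD, the Rag GTPase whose own message is known to be raised by the TFEB family, had the largest log2 fold change of the group on log2(FPKM + 1). The median ratio of FPKM within pairs was slightly larger for FLCN. RRAGD lies on chromosome 6 (ENSG00000025039, GRCh38, 89364636 to 89412270, minus strand). Its FPKM was 5.90, 5.73 and 7.24 in control replicates 1, 2 and 3 and 7.79, 7.33 and 8.81 with NH4Cl. With TGF-β it was 6.26, 5.0 and 6.97, and with NH4Cl plus TGF-β it was 8.08, 7.88 and 10.1. The lowest library with NH4Cl was above the highest without it, by the least between NH4Cl replicate 2 and control replicate 3. The group means were 6.29 ± 0.826 in control, 7.98 ± 0.761 with NH4Cl, 6.08 ± 0.998 with TGF-β and 8.69 ± 1.23 with both (SD, n = 3). The ratio within pairs ran from 1.22 to 1.58, with a median of 1.31. The log2 fold change was 0.38 (SE 0.091, 95% confidence interval 0.18 to 0.58), with an adjusted p of 0.0357 and 6 of 6 pairs higher. With the block the adjusted p was 0.000101 (SE 0.038), within a range of 1.2e-07 to 0.0946 over all 24 alternatives, and without number 3 it was 0.00382 at a log2 fold change of 0.39.

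RRAGC, which takes the same place in the Rag heterodimer as RRAGD, had a smaller difference on log2(FPKM + 1), a scale that understates it at a low FPKM. With voom on the recovered reads the log2 fold changes of RRAGC and RRAGD were 0.34 and 0.35 without TGF-β. They were 0.26 and 0.52 with TGF-β. Whether the NH4Cl difference of RRAGC was smaller than that of RRAGD was not tested. RRAGC lies on chromosome 1 (ENSG00000116954, 38838198 to 38859823, minus strand). Its FPKM was 1.94, 1.85 and 1.96 in control and 2.22, 2.38 and 2.65 with NH4Cl. With TGF-β it was 2.25, 1.98 and 2.01, and with both it was 2.85, 2.32 and 2.36. NH4Cl replicate 1 lay just below TGF-β replicate 1, so the libraries with and without NH4Cl overlapped. The log2 fold change was 0.21 (SE 0.056), with 6 of 6 pairs higher, and the adjusted p of 0.0575 missed the threshold. It was 0.0145 with the block, within a range of 0.00304 to 0.137 over 23 alternatives, and with the block it was 0.0442 without number 1 but missed the threshold without number 2, at 0.115, and without number 3, at 0.0652. Of the exon bases of RRAGC 22.9% are shared with AL139260.2 on the same strand, a transcript not analysed here, so reads there may belong to either.

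RRAGA and RRAGB, which give the Rag heterodimer its other subunit, showed no call in any comparison without or with the block. RRAGA (chromosome 9, ENSG00000155876, 19049395 to 19050983, plus strand) ranged from 48.9 to 53.9 over all 12 libraries. RRAGB (chromosome X, ENSG00000083750, 55717739 to 55758774, plus strand) ranged from 2.00 to 2.90. Their log2 fold changes with NH4Cl were -0.03 for RRAGA (95% confidence interval -0.12 to 0.05, adjusted p 0.685, higher in 2 of 6 pairs) and -0.02 for RRAGB (-0.18 to 0.13, adjusted p 0.883, higher in 3 of 6). The direction of RRAGB turned without NH4Cl replicate 1, to 0.02.

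FLCN, the tumour suppressor that acts on RagC and RagD, was the other gene that rose. It lies on chromosome 17 (ENSG00000154803, 17212212 to 17237188, minus strand). Its FPKM was 2.17, 2.21 and 2.53 in control and 2.67, 2.99 and 3.26 with NH4Cl. With TGF-β it was 1.81, 1.97 and 2.61, and with both it was 2.71, 2.74 and 3.23. Every library with NH4Cl was above every library without it, the nearest being NH4Cl replicate 1 and TGF-β replicate 3. The group means were 2.30 ± 0.198 in control, 2.97 ± 0.293 with NH4Cl, 2.13 ± 0.420 with TGF-β and 2.89 ± 0.290 with both (SD, n = 3), and the ratio within pairs ran from 1.23 to 1.49 with a median of 1.32. The log2 fold change was 0.29 (SE 0.074, 95% confidence interval 0.13 to 0.46), with an adjusted p of 0.0438 and 6 of 6 pairs higher. With the block the adjusted p was 0.000709, within a range of 1.8e-06 to 0.112 over 23 alternatives, and without number 3 it was 0.00652 at a log2 fold change of 0.31. Of the exon bases of FLCN 11.9% are shared with AC055811.2 on the same strand, whose own FPKM was at most 0.209.

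The calls of RRAGD and FLCN without the block were close to the threshold. In the 12 fits that each left out 1 library they stayed under the threshold only without control replicate 3, at 0.0270 for RRAGD and 0.0437 for FLCN, or without TGF-β replicate 3, at 0.0244 and 0.0132, and leaving out any of the other 10 libraries lost both, with adjusted p up to 0.0946 and 0.112.

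FNIP1, which binds folliculin, had an FPKM of 4.45, 4.32 and 5.74 in control and 5.26, 5.19 and 6.52 with NH4Cl. With TGF-β it was 4.4, 3.99 and 5.19, and with both it was 4.93, 4.88 and 6.45. It lies on chromosome 5 (ENSG00000217128, 131641714 to 131797063, minus strand). Replicate 3 was the highest library in every group, and the groups overlapped, with control replicate 3 above NH4Cl replicates 1 and 2. Within pairs the ratio was narrow, from 1.12 to 1.24. The log2 fold change was 0.20 (SE 0.094, adjusted p 0.249), with 6 of 6 pairs higher. With the block it passed at an adjusted p of 0.00110 (SE 0.031), within a range of 6e-05 to 0.448 over 24 alternatives, and without number 3 at 0.0139. FNIP2 (chromosome 4, ENSG00000052795, 158769138 to 158908049, plus strand) ranged from 0.907 to 1.33 and gave a log2 fold change of 0.05 (SE 0.061, adjusted p 0.687), with 5 of 6 pairs higher. A difference between the FNIP genes was not tested. Of the exon bases of FNIP1 3.54% are shared with AC008695.1 on the same strand, a transcript not analysed here.

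TFE3, the most abundant factor of the family, had an FPKM of 19.5, 20.0 and 20.9 in control and 18.1, 18.1 and 21.1 with NH4Cl. With TGF-β it was 20.9, 20.7 and 23.7, and with both it was 17.9, 18.1 and 21.5. It lies on chromosome X (ENSG00000068323, 49028726 to 49043486, minus strand). Replicates 1 and 2 were lower with NH4Cl, while NH4Cl replicate 3 was level with control replicate 3, and the groups overlapped. The log2 fold change was -0.13 (SE 0.062, adjusted p 0.281), with 1 of 6 pairs higher. With the block the adjusted p was 0.00752, within a range of 0.00520 to 0.434 over 24 alternatives. With the block it was 0.00750 without number 3, at -0.16, and the call was lost without number 1, at 0.105, and without number 2, at 0.121.

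TFEB, which gives the family its name, lies on chromosome 6 (ENSG00000112561, 41683978 to 41736259, minus strand). Its FPKM was 3.46, 3.46 and 3.45 in control and 3.02, 3.44 and 3.97 with NH4Cl. With TGF-β it was 3.85, 4.06 and 4.65, and with both it was 3.75, 3.57 and 4.58. The NH4Cl libraries lay on both sides of the control libraries. The log2 fold change with NH4Cl was -0.03 (SE 0.070, 95% confidence interval -0.19 to 0.12, adjusted p 0.840), with 1 of 6 pairs higher, and it turned to 0.0045 without NH4Cl replicate 1. MITF (chromosome 3, ENSG00000187098, 69739435 to 69968337, plus strand) ranged from 0.197 to 0.430, with a ratio of 0.694 to 1.19 within pairs. The fourth factor of the family, TFEC, was not found among the genes of the deposited table, so its level is not known.

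**Figure D3:**
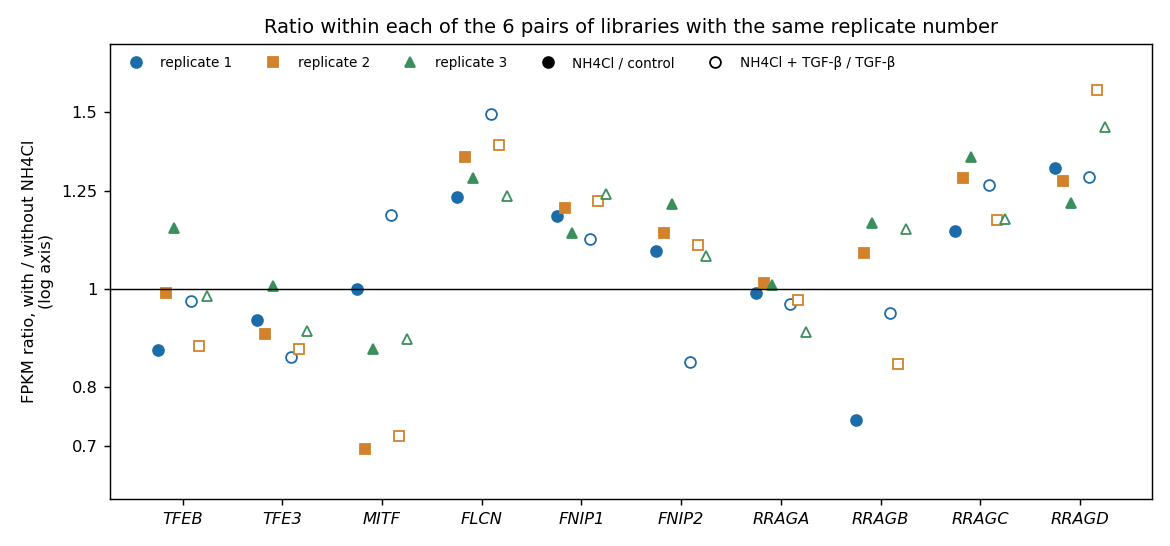
Ratio of the FPKM with NH4Cl to that without it (vertical axis, log scale) for each of the 10 genes (horizontal axis), within the 6 pairs of libraries of the same replicate number; filled points are NH4Cl over control and open points NH4Cl plus TGF-β over TGF-β. All 6 ratios are above 1 for FLCN, FNIP1, RRAGC and RRAGD, with the highest, 1.58, in RRAGD.

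**Figure D4:**
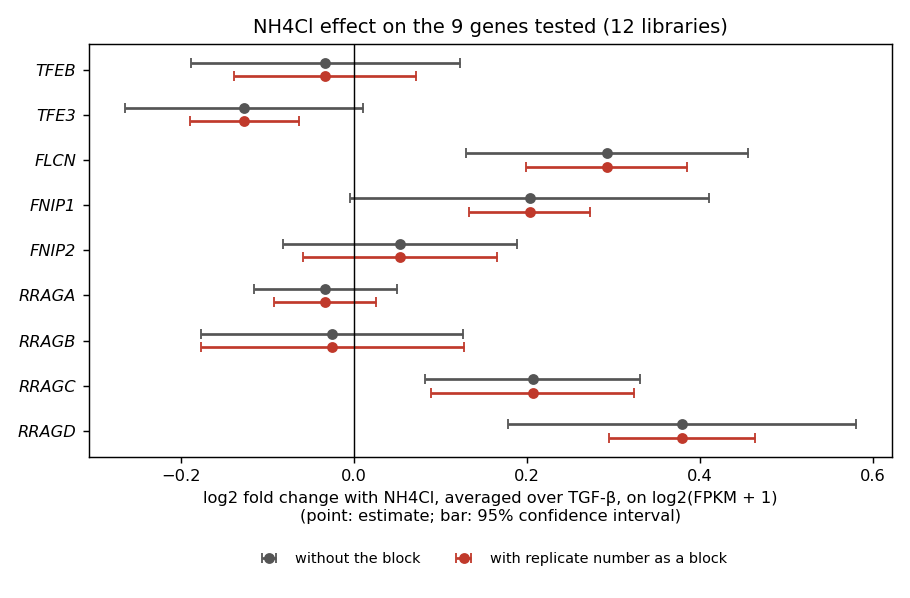
Log2 fold change with NH4Cl averaged over TGF-β (horizontal axis) for the 9 genes tested (vertical axis); points are limma estimates on log2(FPKM + 1) and bars are 95% confidence intervals, in grey without and in red with replicate number as a block. The block leaves the estimates in place and narrows the intervals of FNIP1, RRAGD, TFE3 and FLCN, while those of RRAGB and RRAGC change little.

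Taken without TGF-β, NH4Cl against control gave 0 calls among the 9 genes in limma against 0.381% of all genes, and 0 with voom against 0.486%. At an unadjusted p under 0.05 there were 3 against 10.8% of all genes, and 4 with the block against 29%. With the block 3 were called, all higher, against 13.6% of all genes and 7.42% higher. These were RRAGD at a log2 fold change of 0.30 (adjusted p 0.422, with the block 0.00622), FLCN at 0.27 (0.365 and 0.0172) and FNIP1 at 0.19 (0.693 and 0.0192), each higher in 3 of 3 pairs. Over all alternatives the adjusted p ran from 0.000560 to 0.80 for RRAGD, 0.00109 to 0.768 for FLCN and 0.00691 to 0.997 for FNIP1. The count of 3 with the block fell to 0 without replicate number 1, 0 without number 2 and 1 without number 3.

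In cells with TGF-β, NH4Cl plus TGF-β against TGF-β also gave 0 calls, against 1.03% of all genes, and 0 with voom against 0.664%, with 3 at an unadjusted p under 0.05 against 13.3% of all genes and 5 with the block against 33.4%. With the block 4 were called against 18.8% of all genes, 3 higher against 10.3% and TFE3 lower against 8.48%. RRAGD had a log2 fold change of 0.46 (adjusted p 0.149, with the block 0.000742), FLCN of 0.32 (0.212 and 0.00577) and FNIP1 of 0.21 (0.558 and 0.00980), each higher in 3 of 3 pairs, and TFE3 of -0.18 (0.427 and 0.0138), lower in 3 of 3. Over all alternatives the adjusted p ran from 4e-06 to 0.424 for RRAGD, 0.000121 to 0.549 for FLCN, 0.00252 to 0.920 for FNIP1 and 0.00736 to 0.662 for TFE3. The count of 4 with the block fell to 1 without replicate number 1, 1 without number 2 and 3 without number 3.

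The combined treatment against control shares its libraries with both of the comparisons just given. It gave 0 calls in limma against 0.948% of all genes and 0 with voom against 0.608%, with 3 genes at an unadjusted p under 0.05 against 13.1% of all genes and 5 with the block against 32.8%. With the block 3 were called, all higher, against 18.4% of all genes and 10.7% higher. They were RRAGD at 0.41 (adjusted p 0.191, with the block 0.00115), FLCN at 0.24 (0.370 and 0.0222) and RRAGC at 0.26 (0.174 and 0.0352), each higher in 3 of 3 pairs, with ranges over all alternatives of 1.5e-05 to 0.533, 0.00273 to 0.727 and 0.0108 to 0.474. The count of 3 with the block fell to 1 without replicate number 1, 1 without number 2 and 1 without number 3. Whether the NH4Cl effect differed without and with TGF-β was tested as an interaction, and 0 of the 9 genes and 0% of all genes were called by limma without or with the block, and 0 with voom. At an unadjusted p under 0.05 there were 0 of the 9 in either fit, and 0.932% of all genes, 4.35% with the block. The largest difference was that of RRAGD, 0.15 (95% confidence interval -0.25 to 0.55, adjusted p 1.00, with the block 0.992).

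For TGF-β, given for 1 h by the paper's general methods, few genes of the table passed the threshold. Against control limma called 0% of all genes, 0.0081% with the block, with 0.835% at an unadjusted p under 0.05 and 3.42% with the block, and voom called 0%. Of the 9 genes 0 were called, with 0 at an unadjusted p under 0.05 and 2 with the block, TFEB and TFE3. All 3 TGF-β libraries were above all 3 control libraries for TFEB and RRAGC, against 1.83% of all genes tested. The TFEB values differed by 0.21 on the log2 scale (SE 0.099, 95% confidence interval -0.0049 to 0.43, adjusted p 1.00), higher in 3 of 3 pairs with ratios of 1.11 to 1.35, and those of RRAGC by 0.08. In cells with NH4Cl, adding TGF-β gave 0 calls among the 9 genes against 0% of all genes and 0.0081% with the block, and 0 with voom. At an unadjusted p under 0.05 there were 0 of the 9 genes, 1 with the block, again TFEB, and 1.34% of all genes, 7.12% with the block. TFEB was higher there in 3 of 3 pairs, at a log2 fold change of 0.15 (SE 0.099, adjusted p 1.00). RRAGD was also higher there in 3 of 3 pairs, and FNIP1 and FNIP2 were lower in 3 of 3. For TGF-β against control, TFE3, RRAGA, RRAGB and RRAGC were likewise higher in 3 of 3 pairs, and FNIP1 and MITF lower in 3 of 3. No share of all genes stands beside these counts of pairs.

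The genes whose pattern was most like that of RRAGD were found by Pearson's r over the 12 libraries after the mean of each replicate number was taken off, as a description with no p. They were ALDH4A1 at r = 0.995, SUN1 at 0.988, MVK at 0.988, PRSS22 at 0.987 and DNAH12 at 0.984. DNAH12 had a mean FPKM of 0.861 in control and 0.850 with TGF-β, against 1.64 with NH4Cl and 1.77 with both, so it was among the genes searched only through the groups with NH4Cl and its likeness is partly set by the minimum. The libraries share treatment, so r follows the NH4Cl difference, and each of these genes was higher with NH4Cl in 6 of 6 pairs. Within the group r with RRAGD was 0.909 for FNIP1, 0.901 for FLCN and 0.776 for RRAGC, and -0.785 for TFE3, while the others were weaker, at 0.386 for FNIP2, -0.104 for RRAGB, -0.134 for TFEB and -0.502 for RRAGA.

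Other parts of the pathway were described by lists of known genes, each with the genes called with NH4Cl averaged over TGF-β and the median log2 fold change, beside -0.00061 over all genes. Of all genes tested 6.14% were called, 3.74% higher and 2.4% lower, and with the block 31%, 16.1% higher and 15% lower. At an unadjusted p under 0.05 there were 20.9% of all genes, and 42.7% with the block, and voom called 5.54%. These shares stand beside the count of each list, which had no test of its own. Of the Ragulator, the lysosomal anchor of the Rags, 0 of 5 genes were called in limma and 0 in voom (1 at an unadjusted p under 0.05, against 20.9% of all genes, and 4 with the block, against 42.7%), and 1 was called with the block, LAMTOR5 at 0.15 (adjusted p 0.158, with the block 0.0421, 6 of 6 pairs higher), and the median was 0.09. LAMTOR2 differed by 0.14 and LAMTOR4 by 0.09. Of GATOR1, GATOR2 and KICSTOR, which set the state of RagA and RagB, 10 of 12 genes were tested, 1 fell and 0 rose, and with the block 2 were higher and 1 lower, with a median of 0.03. The gene that fell was ITFG2, a KICSTOR subunit, with a group mean FPKM of 4.71 ± 0.138 in control, 3.79 ± 0.165 with NH4Cl, 4.72 ± 0.0796 with TGF-β and 3.40 ± 0.019 with both (SD, n = 3). Its log2 fold change was -0.31 (SE 0.037, adjusted p 0.00186), with 0 of 6 pairs higher. KICS2 differed by 0.18 (adjusted p 0.180, with the block 0.00910) and WDR24 by 0.15 (0.0548 and 0.00861), each higher in 6 of 6 pairs.

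Of the amino acid sensors, 7 of 9 were tested, 0 were called in limma and 0 in voom (1 at an unadjusted p under 0.05, against 20.9% of all genes, and 2 with the block, against 42.7%), and 2 were higher with the block, with a median of 0.04. These were SESN2 at 0.20 (adjusted p 0.770, with the block 0.0216, 5 of 6 pairs higher) and LARS1 at 0.13 (0.0646 and 0.00946, 6 of 6), while CASTOR2 differed by -0.15 (0.493 and 0.200, 1 of 6). In mTORC1, the kinase complex the Rags recruit, 1 of the 4 genes whose mean FPKM reached 1 in every group rose and 0 fell, against 3.61% higher among all such genes, with a median of 0.02. It was AKT1S1, known as PRAS40, at 0.14 (adjusted p 0.0367, 6 of 6 pairs higher), which missed the threshold with voom, at 0.107. DEPTOR, an inhibitory subunit, reached the minimum only through the groups with NH4Cl and is left out of this count, since a gene tested for that reason had to differ. It was higher by 0.27 (adjusted p 0.0198, and 0.0411 with no minimum) in 6 of 6 pairs. Its mean FPKM was 0.825 ± 0.133 in control and 1.11 ± 0.0765 with NH4Cl, and 0.884 ± 0.0871 with TGF-β and 1.36 ± 0.0811 with both (SD, n = 3). The DEPTOR call held in 7 of the 12 fits that left out 1 library, at adjusted p of up to 0.0598. Over all alternatives the adjusted p of DEPTOR reached 0.118. RPTOR, the subunit that binds substrates, differed by -0.06 and turned to 0.01 without NH4Cl replicate 3. Of the TSC complex and RHEB, 1 of 4 rose, RHEB, the activator of mTORC1, at 0.15 (adjusted p 0.0302, with voom 0.0523, 6 of 6 pairs higher), and the median was 0.04. With the block TSC2, which switches RHEB off, was also called, at -0.11 (0.157 without and 0.0474 with the block, 0 of 6 pairs higher), and TSC1 differed by 0.09.

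Of 10 genes for the phosphatase calcineurin, kinases and nuclear shuttling of TFEB, 0 were called in limma and 0 in voom (1 at an unadjusted p under 0.05, against 20.9% of all genes, and 4 with the block, against 42.7%), and 2 were higher and 1 lower with the block, with a median of -0.04. PPP3CC, a calcineurin subunit, differed by 0.16 (adjusted p 0.397, with the block 0.0433) and GSK3B by 0.14 (0.118 and 0.0113), each higher in 6 of 6 pairs. The gene called lower with the block was PPP3CA, another calcineurin subunit, at -0.11 (0.253 and 0.0497, 0 of 6 higher), named after its values were seen. MCOLN1, the lysosomal calcium channel, differed by -0.12 (0.515 and 0.0603, 1 of 6). Of the ATG8 proteins, which mark autophagosomes, and their conjugation, 10 of 12 were tested and 0 were called in limma and 0 in voom. Of the 9 whose mean FPKM reached 1 in every group, 2 were at an unadjusted p under 0.05, against 20.4% of all such genes, and 4 with the block, against 42.7%, and 2 were called higher with the block, against 16%, and 0 lower, against 15.2%, with a median of 0.0014. MAP1LC3B differed by 0.22 (adjusted p 0.344, with the block 0.000482, 6 of 6 pairs higher) and MAP1LC3B2 by 0.25 (0.149 and 0.0277, 6 of 6). MAP1LC3A, the gene left out, differed by -0.26 (0.10 and 0.0273, 1 of 6 higher), but it reached the minimum only through the groups without NH4Cl, with a mean FPKM of 1.22 in control and 1.28 with TGF-β against 0.911 with NH4Cl and 0.837 with both, and with no minimum its adjusted p was 0.168. MAP1LC3B and MAP1LC3B2 share part of their sequence, 15.1% of the 50-base stretches of MAP1LC3B2 occurring in another gene.

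Among the CLEAR targets, lysosomal and autophagy genes known to be switched on by TFEB, single genes are given, with no count or median over the list. The values given are for genes called or with the largest change. Other members of the list, such as LAMP1, SCPEP1 and MCOLN1, were not higher with NH4Cl. SQSTM1, an autophagy receptor, rose by 0.58 (SE 0.12, adjusted p 0.0233), from a mean FPKM of 28.0 ± 6.11 in control to 41.5 ± 5.54 with NH4Cl, and from 28.2 ± 6.21 with TGF-β to 42.6 ± 4.72 with both (SD, n = 3). The peptidase TPP1 rose by 0.31 (adjusted p 0.0102), the proton pump subunit ATP6V1H by 0.25 (0.0259) and the saposin precursor PSAP by 0.17 (0.0299), and each of these was higher in 6 of 6 pairs. NEU1, a lysosomal sialidase, differed by 0.34 (adjusted p 0.165, with the block 0.000354), also higher in 6 of 6 pairs.

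The calls of ITFG2 and TPP1 held in all 12 fits that left out 1 library, with adjusted p of at most 0.00860 and 0.0346. Over all alternatives that of ITFG2 reached 0.0200, and the call of TPP1 was lost on scaling to TPM, at 0.101. Those of SQSTM1 held in 7 of 12, ATP6V1H in 4, RHEB and PSAP in 3 and AKT1S1 in 2, and leaving out control replicate 1, control replicate 2 or TGF-β replicate 2 ended each of these, at adjusted p of up to 0.0662, 0.0693, 0.0837, 0.0826 and 0.0950. Over all alternatives their adjusted p reached 0.0662 for SQSTM1, 0.0693 for ATP6V1H, 0.179 for RHEB, 0.148 for PSAP and 0.333 for AKT1S1. The plot of the lists shows where each gene lies within its list.

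**Figure D5:**
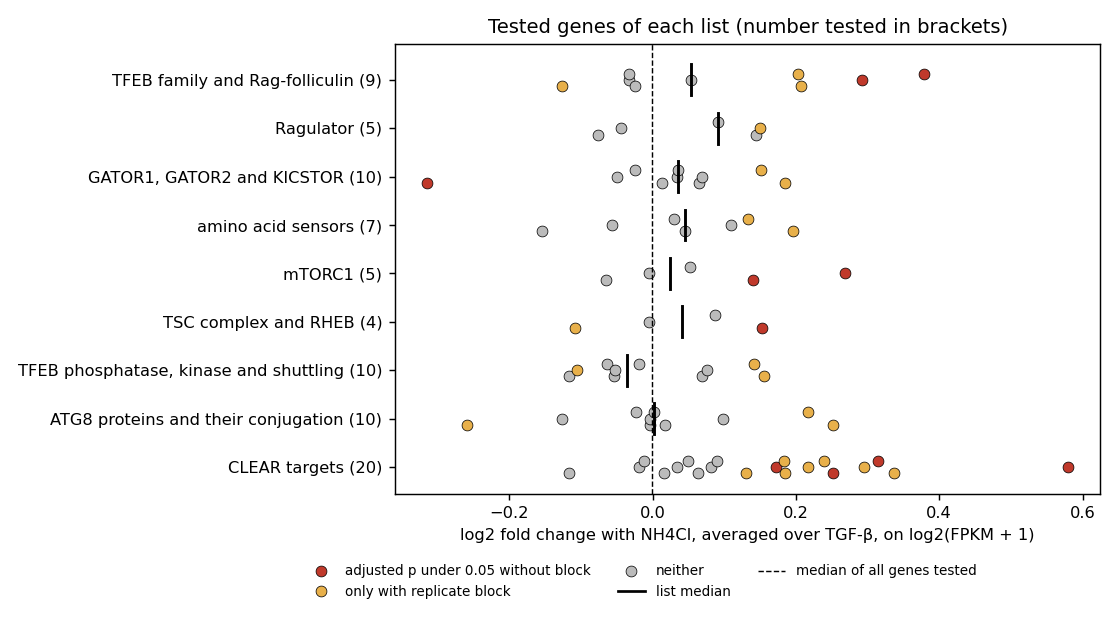
Log2 fold change with NH4Cl averaged over TGF-β on log2(FPKM + 1) (horizontal axis) for each tested gene of the pathway lists (vertical axis, number tested in brackets); points are genes, red where called without the block, yellow where called only with it and grey otherwise, and vertical bars are list medians over the genes whose mean FPKM reached 1 in every group, not drawn for the CLEAR targets, beside the dashed median of all genes. ITFG2 is the only red point below 0, and DEPTOR and MAP1LC3A are drawn as points although they reached the minimum FPKM only through the groups where they are high. The row of CLEAR targets lacks the genes left out after the values were seen, so its bracketed number and colours give no count over that list.

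Among the 6 immune, endothelial and fibroblast markers measured, 2 had a mean FPKM of 1 or more, VWF at 3.01, the most abundant and above FLCN, and COL1A1 at 1.68, and 0 were at zero in every library. The summed FPKM of the list was 2.96, 3.12 and 6.22 in control, 3.21, 2.59 and 6.23 with TGF-β, 4.31, 4.78 and 7.89 with NH4Cl and 4.16, 4.02 and 9.29 with both. VWF differed with NH4Cl by 0.49 (adjusted p 0.381, with the block 0.000158), higher in 6 of 6 pairs, and COL1A1 by 0.14 (0.624 and 0.113, 5 of 6 higher). Among the epithelial markers, EPCAM rose by 0.15 (adjusted p 0.0446, 6 of 6 pairs higher), a call that each of the 12 fits without 1 library lost, at up to 0.118 (0.214 over all alternatives), and KRT19 differed by -0.34 (0.196, with the block 1.2e-05) and CDH1 by -0.18 (0.390 and 0.00409), both lower in 6 of 6 pairs, and VIL1 by 0.15 (0.0715 and 0.00820, 5 of 6 higher). The summed FPKM of the epithelial list ran from 2281 to 3426. In bulk samples fewer cells of a kind and less RNA per cell cannot be told apart, and the part of these markers in the values of RRAGD and FLCN was not tested.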

How the data were processed

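RNA sequencing of 12 HCT116 libraries was used. The authors trimmed reads (Trimmomatic 0.36), aligned them to GRCh38 (STAR 2.5.2b) and counted genes (Subread 1.5.2 in the labels, HTSeq in the paper), and the deposited values are FPKM. The authors also used DESeq2. The labels do not say whether counting used strand, so reads in overlapping genes are uncertain. Multiplied by exon length and library total, values were whole within 0.1, which gave the reads per gene. All 25733 genes matched GENCODE release 29. The 12341 genes whose mean FPKM was 1 or more were fitted as log2(FPKM + 1) with limma 3.58.1 (R 4.3.3, intensity trend, two-sided, 4 group means, 7 comparisons that share groups), adjusted by Benjamini-Hochberg, threshold 0.05. Tables and figures used Python 3.11.15, numpy 2.4.6, pandas 2.3.3 and matplotlib 3.10.9.

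The labels do not say what a replicate number stands for. Over genes, after group means were taken off, libraries of the same number correlated at r = 0.349 to 0.774 (18 pairs) and others at -0.655 to 0.486 (36 pairs), so the number was used as a block in an alternative. Others changed the pseudocount (0.1), the filter (none, or 5), the scaling and the tool (voom), or left libraries out. Promoter windows came from RefSeq (GRCh38.p14).

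The genes and lists were chosen with earlier results of these data known. All 10 genes are named. From each list the genes past the threshold without the block and the 3 with the largest change with NH4Cl are named, as are the 5 genes most like RRAGD. LAMTOR1, LAMTOR3, PPP3CA, LAMP1 and SCPEP1 are named outside that rule, after their values were seen. From the list of CLEAR targets 2 genes were left out after the values were seen and are not reported here, so no count or median over that list is given.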

Additional observations from a re-analysis of the deposited data

How the results depend on the processing

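Genes called with NH4Cl averaged over TGF-β numbered 758, and 47 for NH4Cl against control, 127 for NH4Cl plus TGF-β against TGF-β, and 117 for the combined treatment against control. In that order the counts were 3830, 1674, 2322 and 2274 with the replicate block, and 4470, 2238, 2980 and 2926 with voom and the block, an alternative added after seeing the data. With the block they were 1962, 273, 546 and 627 without replicate number 1, 1704, 218, 580 and 625 without number 2, and 3206, 1147, 1653 and 1605 without number 3. TPM scaling gave 489 averaged, 68 with TGF-β and 58 for the combined treatment, voom 82 and 75 for the last pair, no filter 23, 51 and 39 for the last 3, and a minimum mean FPKM of 5 gave 500 averaged. Fits of only the groups compared gave 0 for the last 3 comparisons, with fewer libraries. Leaving out 1 library gave 344 to 902, 0 to 29, 3 to 133 and 2 to 57. For TGF-β against control 1 gene was called with the block, also without number 2 or 3, and 2 with voom and the block. For NH4Cl plus TGF-β against NH4Cl these were 1 and 2. The interaction had 1 with voom and the block or with the block without number 3. Leaving out 1 library gave 0 to 1 for TGF-β against control and for the interaction.

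Of the 9 genes of the group tested, 2 were called with NH4Cl averaged, RRAGD and FLCN. The count was 5 with the block and with voom and the block, 4 with the block without number 1 or 3, 3 with the block without number 2 and with no intensity trend, 1 (RRAGD) at a minimum mean FPKM of 5, which removes FLCN, 0 with no filter, where more genes are tested, and 0 to 2 on leaving out 1 library. With the block, with voom and the block, and with the block without numbers 1, 2 and 3, the counts were 3, 4, 0, 0 and 1 for NH4Cl against control, 4, 4, 1, 1 and 3 with TGF-β, and 3, 4, 1, 1 and 1 for the combined treatment. Log2 fold changes averaged over TGF-β that turned were TFEB (-0.0763 to 0.0045 on leaving out 1 library, above 0 without NH4Cl replicate 1), RRAGB (-0.0545 to 0.0211, above 0 without NH4Cl replicate 1, and 0.0516 with the block without number 1) and RPTOR (-0.1161 to 0.0114, above 0 without NH4Cl replicate 3). In single comparisons, none of them called, values also turned over the alternatives. For NH4Cl against control these were TFEB (-0.080 to 0.075), RRAGA (-0.027 to 0.038) and RRAGB (-0.11 to 0.12), with TGF-β FNIP2 (-0.047 to 0.065) and RRAGB (-0.12 to 0.043), and for the combined treatment FNIP2 (-0.073 to 0.040) and RRAGA (-0.065 to 0.011). The cause was not tested.

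Depth limits MITF most, at 23 to 53 reads per library, and FNIP2, RRAGB and RRAGC had at most 240 reads in any library. Reads in exons shared with overlapping genes cannot be assigned, which touches RRAGC, FLCN and FNIP1. With 3 libraries a group and a spread that follows replicate number, a comparison that missed the threshold does not show equal levels. The RNA levels say nothing on protein, phosphorylation or where in the cell a factor is.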
